A study of Homo sapiens with 4 samples.

Results

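The FOXO transcription factors and a set of genes known to be bound by them were followed in MDA-MB-231 cells after blockade of TEAD palmitoylation. The 10 genes were chosen by name from the deposited table, which lists 48162 genes. They are FOXO1, FOXO3, FOXO4 and FOXO6, and the target genes IRS2, SESN1, SESN3, CITED2, TRIB1 and FBXO32. MDA-MB-231 is an established human breast cancer line with a mesenchymal appearance, grown here in DMEM with serum. MGH-CP1 occupies the lipid pocket of the TEAD factors and blocks their autopalmitoylation. Poly-T selected RNA was sequenced from 2 libraries of cells kept for 24 h in MGH-CP1 and 2 libraries of cells given vehicle control. The sample labels give the dose as 10 µM, whereas the methods print the same number in mM. Nothing in the labels says that the libraries of a group came from separate cultures, so each p-value measures the spread between these libraries, which may be technical.

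FOXO proteins are forkhead transcription factors that are held in check by growth factor signalling. When insulin or a related factor activates PI3K and AKT, AKT phosphorylates FOXO, 14-3-3 proteins bind the phosphorylated form, and the complex stays in the cytoplasm. When AKT activity is low, FOXO enters the nucleus and turns on genes for cell cycle arrest, stress resistance, protein breakdown and, as feedback, parts of the insulin pathway itself. Since FOXO is controlled mainly through phosphorylation, the level of its mRNA does not show how active the protein is. The study reports that MGH-CP1 raised AKT phosphorylation in other cancer cell lines, and MDA-MB-231 was not among the lines blotted. Whether AKT activity differed between the libraries used here was not tested.

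Values are FPKM, fragments divided by the length of the gene and by the fragments on all listed genes, so that levels of different genes can be set side by side. Listed genes took 25455533 and 25508824 fragments under vehicle control, and the shallower MGH-CP1 libraries took 17997221 and 17577930. The mesenchymal genes VIM, CD44, CAV1, AXL and MSN each lay between 149 and 389 FPKM in all 4 libraries. Of the genes fixed as low in this line, ESR1, PGR and CDH1 stayed under 1 FPKM, while EPCAM ran from 12.4 to 16.4 FPKM and ERBB2 from 24.7 to 28.4 FPKM. Summed levels of 3 leukocyte markers were at most 0.0431 FPKM in any library, and the endothelial and erythroid markers found in the table, CDH5 and HBB, were listed at 0. The TEAD–YAP target gene CYR61 was lower in both treated libraries, and its log2 value fell by 0.75 (adjusted p = 3.29e-05 from limma). In bulk RNA, fewer cells that express a gene and less of its RNA per cell cannot be told apart. The test covered 12080 genes whose FPKM averaged 1 or more over the 4 libraries, of which 50.8% had an adjusted p (Benjamini-Hochberg) under 0.05 in limma, a linear model that shares variance between genes, 27.1% as higher and 23.8% as lower after MGH-CP1. Any count below is to be read against that background.

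Before the values, the promoter windows that hold recognisable letters are shown, because FOXO factors are known to bind forkhead motifs. Windows from 250 bases before to 30 bases after a transcript start were taken from RefSeq (GRCh38.p14), where 8 of the 10 genes matched, with 15 windows in all. TRIB1 and FBXO32 had no window and were not searched. 4 sets of letters were searched on both strands, namely the FOXO motif GTAAACA, the forkhead motif ATAAACA, which shares its last 6 letters with the first, the insulin response motif CAAAACAA, and the TEAD motif GGAATG. Capitals mark the match. The sequences are written 5′ to 3′ along the gene.
FOXO4, chrX:71095601-71095880, plus strand, FOXO motif: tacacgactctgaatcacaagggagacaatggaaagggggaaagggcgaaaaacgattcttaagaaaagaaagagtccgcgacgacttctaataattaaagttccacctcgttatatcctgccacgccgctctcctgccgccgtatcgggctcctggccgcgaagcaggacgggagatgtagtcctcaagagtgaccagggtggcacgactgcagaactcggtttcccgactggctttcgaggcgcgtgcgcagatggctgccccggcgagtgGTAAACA
FOXO3, chr6:108560667-108560946, plus strand, forkhead motif: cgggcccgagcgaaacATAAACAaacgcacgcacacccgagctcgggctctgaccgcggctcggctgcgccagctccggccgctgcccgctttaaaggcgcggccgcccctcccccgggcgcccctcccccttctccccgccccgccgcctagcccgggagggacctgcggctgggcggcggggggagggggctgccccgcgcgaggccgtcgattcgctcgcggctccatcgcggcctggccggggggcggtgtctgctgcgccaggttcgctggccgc
FOXO3, chr6:108559575-108559854, plus strand, TEAD motif: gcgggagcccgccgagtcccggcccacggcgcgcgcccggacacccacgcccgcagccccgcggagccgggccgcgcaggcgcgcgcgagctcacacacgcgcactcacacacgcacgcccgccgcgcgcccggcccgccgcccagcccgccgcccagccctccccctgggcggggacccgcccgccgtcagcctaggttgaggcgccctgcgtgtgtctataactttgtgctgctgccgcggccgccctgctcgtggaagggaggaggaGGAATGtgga
IRS2, chr13:109786554-109786833, minus strand, insulin response motif on the other strand: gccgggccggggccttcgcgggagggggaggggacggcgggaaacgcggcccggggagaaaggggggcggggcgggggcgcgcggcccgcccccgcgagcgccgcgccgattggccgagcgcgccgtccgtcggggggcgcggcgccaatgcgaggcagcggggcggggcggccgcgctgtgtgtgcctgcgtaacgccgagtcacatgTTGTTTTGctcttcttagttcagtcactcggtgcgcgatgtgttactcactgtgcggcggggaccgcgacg
SESN1, chr6:109009523-109009802, minus strand, TEAD motif on the other strand: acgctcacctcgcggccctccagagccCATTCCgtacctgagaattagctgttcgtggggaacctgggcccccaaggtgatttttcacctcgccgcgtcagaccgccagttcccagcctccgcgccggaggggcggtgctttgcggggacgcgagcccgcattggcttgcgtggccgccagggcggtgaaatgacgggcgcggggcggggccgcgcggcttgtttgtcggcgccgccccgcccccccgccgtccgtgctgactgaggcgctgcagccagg

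The FOXO motif was found in 1 of the 15 windows, that of FOXO4, with its first base 24 bases into the transcript. Of all 35116 windows of this length in the table, 3.25% hold it. The forkhead motif was found in 1 of the 4 FOXO3 windows and in 4.07% of all windows, and the insulin response motif in the IRS2 window and in 1.59% of all windows. The TEAD motif was found in 2 windows, of FOXO3 and SESN1, and in 13.3% of all windows. A match is a description of the letters and not a site of binding. The windows of FOXO1, FOXO6, SESN3 and CITED2 held none of these letters, which says nothing about the factors.

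FOXO3 had the highest FPKM of the FOXO factors, and FOXO4 rose most. FOXO4 doubled its FPKM after MGH-CP1, FOXO1 rose by less, and FOXO3 and FOXO6 were not called. All 4 FOXO factors passed the filter on low values, and 2 of them were called higher in limma (adjusted p under 0.05), where 27.1% of all genes tested were. In the libraries of 3 factors, FOXO1, FOXO3 and FOXO4, both MGH-CP1 values lay above both vehicle control values, which held for 39.8% of all genes tested, while 37.4% lay apart in the other direction and 77.2% in either.

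FOXO4 (ENSG00000184481) is the FOXO factor encoded on the X chromosome and lies on the plus strand at chrX:70316047-70323385. Coordinates of genes are those of the table, and the build is hg19 according to the submitters' processing notes. Under vehicle control the libraries read 2.67 and 2.65 FPKM, and under MGH-CP1 they read 5.89 and 4.95 FPKM. Both treated libraries stood far above the controls, and they differed from each other more than the controls did. The ratio of the means was 2.04, and the log2 fold change, computed here and below on FPKM + 1, was 0.81 (standard error 0.10, 95% interval 0.58 to 1.04, adjusted p = 3.76e-04 from limma). Among the genes tested, 3.58% had a larger log2 fold change. Leaving out any single library gave values from 0.70 to 0.91, and the call held.

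FOXO1 (ENSG00000150907), the factor best known from insulin action in liver, lies on the minus strand at chr13:41129804-41240734. The vehicle control libraries had 1.25 and 1.29 FPKM and the MGH-CP1 libraries 1.78 and 1.99 FPKM. The groups did not overlap, although the gene is among the lowest tested, with only 7.30% of the genes tested at a lower level. Its log2 fold change was 0.35 (standard error 0.11, 95% interval 0.09 to 0.61, adjusted p = 0.0327 from limma). The call did not hold under every setting. With no filter on low values the adjusted p was 0.0998 in limma, while a pseudocount of 0.1 kept the call (0.54, adjusted p = 0.0354). With quantile normalization the log2 fold change was 0.19 (adjusted p = 0.192 from limma), whereas limma voom, run on the whole fragments recovered from FPKM and gene length, gave 0.57 (adjusted p = 0.00135). It was also lost without either vehicle control library or without MGH-CP1 replicate 2, with an adjusted p of up to 0.134 in limma.

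FOXO3 (ENSG00000118689), a broadly expressed factor tied to stress resistance, lies on the plus strand at chr6:108881038-109005977. Its level was 8.02 and 7.52 FPKM in the vehicle control libraries and 8.67 and 8.88 FPKM after MGH-CP1. Every treated value was above every control value, by a small margin. The log2 fold change was 0.16 (95% interval -0.0038 to 0.32, adjusted p = 0.0938 from limma). That interval leaves room for a rise as well as for no change. In limma voom on the recovered fragments the gene was called (log2 fold change 0.18, adjusted p = 0.0313). Its pseudogene copy FOXO3B held 16 to 25 fragments per library against 1145 to 1498 on FOXO3.

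FOXO6 (ENSG00000204060), known mainly from brain, lies on the plus strand at chr1:41827594-41849262. The vehicle control libraries gave 2.51 and 2.94 FPKM, and the MGH-CP1 libraries gave 2.90 and 3.91 FPKM. The groups overlapped, since MGH-CP1 replicate 1 lay below vehicle control replicate 2. The log2 fold change was 0.23 (95% interval -0.07 to 0.54, adjusted p = 0.167 from limma), and it rested on single libraries. Without MGH-CP1 replicate 1 it was 0.40 and called (adjusted p = 0.0385 from limma), without MGH-CP1 replicate 2 it was 0.07 (adjusted p = 0.7002), and without vehicle control replicate 1 it was 0.15 (adjusted p = 0.477). FOXO6 had few fragments, from 125 to 180 per library. At 125 fragments the exact Poisson 95% interval of MGH-CP1 replicate 1 runs from 2.41 to 3.45 FPKM, which covers counting error only. An antisense gene on the opposite strand inside FOXO6 held 6 to 9 fragments, and whether the counting used strand is not given in the sources used here.

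**Figure D1:**
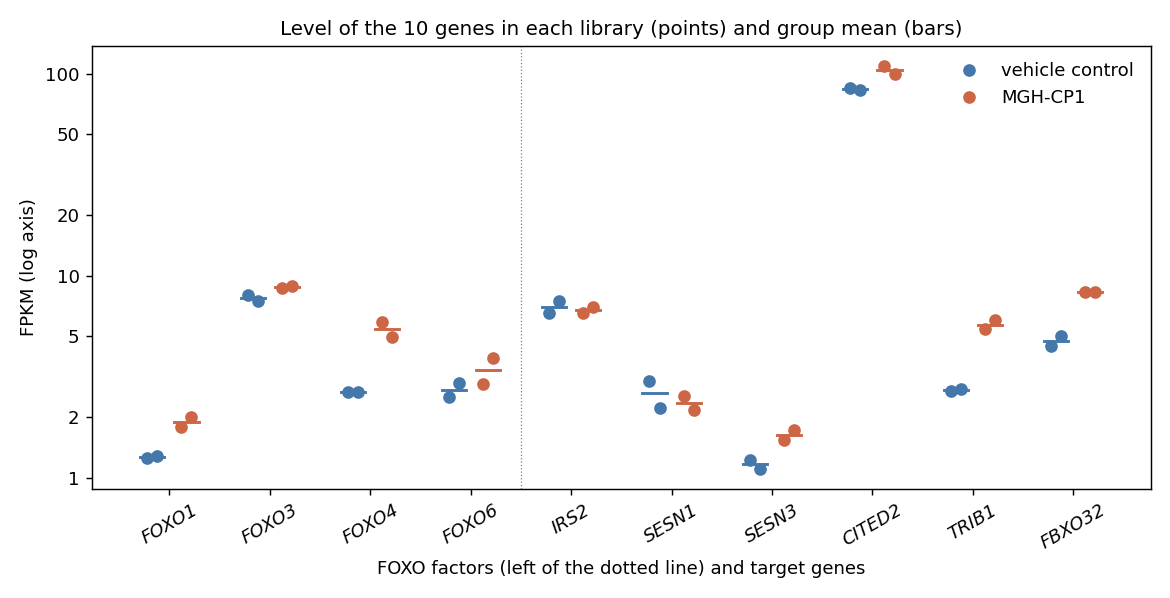
FPKM on a log axis for each of the 10 genes, with a point for each library (blue vehicle control, orange MGH-CP1) and a short bar at the mean of the 2 libraries. CITED2 stands alone near 100 FPKM, the orange points of FOXO1, FOXO3, FOXO4, SESN3, CITED2, TRIB1 and FBXO32 lie above the blue ones, and those of FOXO6, IRS2 and SESN1 overlap them.

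The make-up of the FOXO mRNA pool differed between the conditions. Summed over the 4 factors, the controls reached 14.4 ± 0.0285 FPKM (SD, n = 2) and the treated libraries 19.5 ± 0.352 FPKM (SD, n = 2). FOXO3 made up 55.5% and 52.2% of this sum in the controls and 45.1% and 45.0% of it after treatment. The share of FOXO4 was 18.5% and 18.4% in the controls and 30.6% and 25.1% after treatment. In both libraries of the treated group FOXO4 thus held a larger share, and FOXO3 a smaller share, than in either control. FOXO1 took 8.64% and 8.93% of the sum in the controls and 9.27% and 10.1% after MGH-CP1, and the share of FOXO6 overlapped between the groups. For the shares of FOXO1, FOXO3 and FOXO4 the exact permutation test (two-sided) gave p = 0.333, the lowest value open to a design of 2 against 2, so this design cannot reach 0.05. For FOXO6 the exact permutation p was 0.667.

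**Figure D2:**
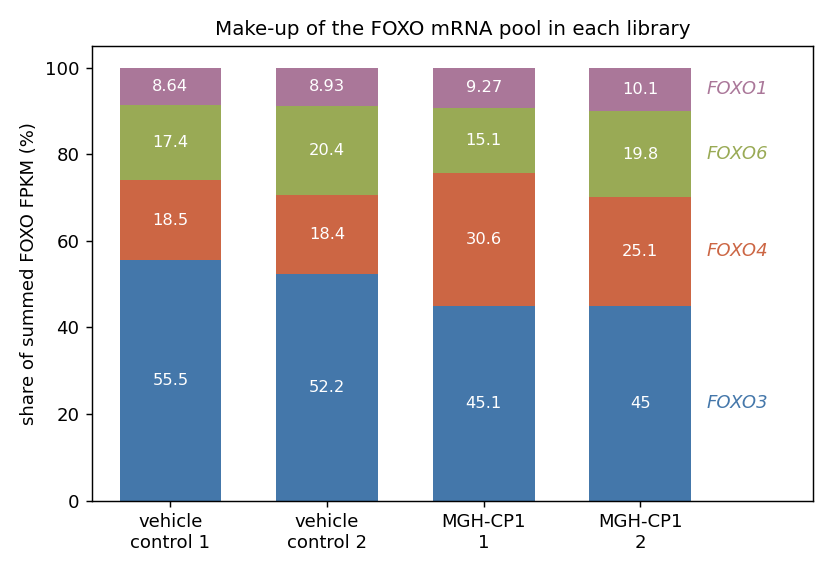
Share of each FOXO factor in the summed FOXO FPKM, in percent, as stacked bars for the 4 libraries with the share printed in each segment. The FOXO4 segment grows from 18.4% and 18.5% to 25.1% and 30.6%, while that of FOXO3 shrinks to 45.0% and 45.1%.

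Profiles close to those of the FOXO factors were looked up among the 12080 genes tested, by the Euclidean distance over the 4 libraries between log2(FPKM + 1) centred on each gene. Nearest to FOXO4 were THEMIS2 (distance 0.0422) and CD9 (0.0473). SNAPC4 (0.0085) and SP6 (0.0120) were nearest to FOXO1, SLC22A4 (0.0161) and GS1-358P8.4 (0.0188) to FOXO3, and ZNF671 (0.0441) and TRAPPC2P1 (0.0543) to FOXO6. With 4 libraries such closeness is a description only.

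Of the 6 target genes, TRIB1, FBXO32 and CITED2 rose, and IRS2, SESN1 and SESN3 were not called. All 6 passed the filter. Over the 10 genes together, 5 were called higher and 0 lower in limma, against 27.1% and 23.8% of all genes tested. At an unadjusted p under 0.05 the counts were 6 and 0. The share of all genes at that unadjusted threshold was not counted, so the unadjusted counts here and below have no background. In limma voom on the recovered fragments 7 were called higher and 0 lower (adjusted p under 0.05). Of all 12080 genes tested, limma voom called 3480 higher and 3113 lower. The median log2 fold change of the 10 genes was 0.29, and that of all genes tested 0.01. The genes were picked with earlier results of these data known, so these counts describe them and test nothing about FOXO targets as a class.

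TRIB1 (ENSG00000173334, chr8:126442563-126450647, plus strand) encodes a pseudokinase that brings the ubiquitin ligase COP1 to substrates such as C/EBP alpha. The controls held it at 2.68 and 2.74 FPKM, the treated libraries at 5.44 and 6.01 FPKM. The treated libraries were both about double the controls and well apart from them. The ratio of the means was 2.11 and the log2 fold change 0.86 (standard error 0.09, 95% interval 0.65 to 1.06, adjusted p = 1.67e-04 from limma), the largest of the 10 genes. Of the genes tested, 2.87% had a larger value.

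FBXO32 (ENSG00000156804, chr8:124510129-124553446, minus strand) encodes atrogin-1, the F-box subunit of a ubiquitin ligase that marks proteins for breakdown and is known from muscle wasting. Its level was 4.50 and 5.03 FPKM in the controls and 8.26 and 8.28 FPKM after MGH-CP1. The treated libraries were nearly equal and both clearly above the controls. The log2 fold change was 0.69 (standard error 0.08, 95% interval 0.50 to 0.87, adjusted p = 2.81e-04 from limma).

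CITED2 (ENSG00000164442, chr6:139693393-139695757, minus strand) encodes a protein that competes for the coactivators p300 and CBP and so limits HIF activity. It was by far the most abundant of the 10 mRNAs, above 95.2% of the genes tested, with 85.1 and 82.9 FPKM in the vehicle control libraries. In the MGH-CP1 libraries it had 109 and 99.7 FPKM. The rise was small in proportion but larger than the spread between libraries, with a ratio of the means of 1.24 and a log2 fold change of 0.31 (standard error 0.06, 95% interval 0.18 to 0.44, adjusted p = 0.00246 from limma).

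IRS2 (ENSG00000185950, chr13:110406184-110438915, minus strand) encodes the adaptor that links the insulin and IGF receptors to PI3K, and its promoter window carries the insulin response motif shown above. The vehicle control libraries had 6.55 and 7.46 FPKM and the MGH-CP1 libraries 6.49 and 7.02 FPKM. The groups lay within each other's range over most of their extent. The log2 fold change was -0.04 (95% interval -0.24 to 0.15, adjusted p = 0.693 from limma), an interval that leaves room for modest changes in either direction. Its relative IRS1, from the list of insulin pathway genes, had 28.8 and 30.9 FPKM in the controls and 35.8 and 36.5 FPKM with the inhibitor. It rose by 0.27 on the log2 scale (adjusted p = 0.00444 from limma), and it is named here after its value was seen.

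SESN1 and SESN3 encode sestrins, which bind GATOR2 and restrain mTORC1 when amino acids or growth factors are short. SESN3 (ENSG00000149212, chr11:94898704-94965705, minus strand) had 1.22 and 1.11 FPKM in the controls and 1.53 and 1.73 FPKM after MGH-CP1. The treated values were higher in both libraries, at the lowest mean level of the 10 genes. Its log2 fold change of 0.28 (95% interval 0.01 to 0.55) had an adjusted p of 0.0798 in limma. In limma voom on the recovered fragments the value was 0.48 and called (adjusted p = 0.00140), and with quantile normalization it was 0.12 (adjusted p = 0.443 in limma). An antisense gene that spans SESN3 on the opposite strand held 11 to 38 fragments per library against 263 to 296 on SESN3.

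SESN1 (ENSG00000080546, chr6:109307640-109416022, minus strand) is also a known p53 target. The vehicle control libraries had 3.01 and 2.22 FPKM and the MGH-CP1 libraries 2.53 and 2.16 FPKM. The spread within the controls was larger than the difference between the groups, and the exact Poisson 95% intervals of the 2 controls, 2.66 to 3.39 FPKM and 1.93 to 2.55 FPKM, did not overlap. The log2 fold change was -0.11 (95% interval -0.41 to 0.20, adjusted p = 0.523 from limma). The third sestrin, SESN2, which is not a member but a relative, had 5.14 and 5.79 FPKM in the controls and 4.33 and 4.46 FPKM after MGH-CP1, and fell by 0.26 on the log2 scale (adjusted p = 0.0354 from limma). The SESN2 call was lost without vehicle control replicate 2 (adjusted p = 0.207 in limma), MGH-CP1 replicate 1 (0.119) or MGH-CP1 replicate 2 (0.0738). Of the summed sestrin FPKM, SESN3 held 13.0% and 12.1% in the controls and 18.3% and 20.7% after MGH-CP1 (exact permutation test, two-sided, p = 0.333).

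**Figure D3:**
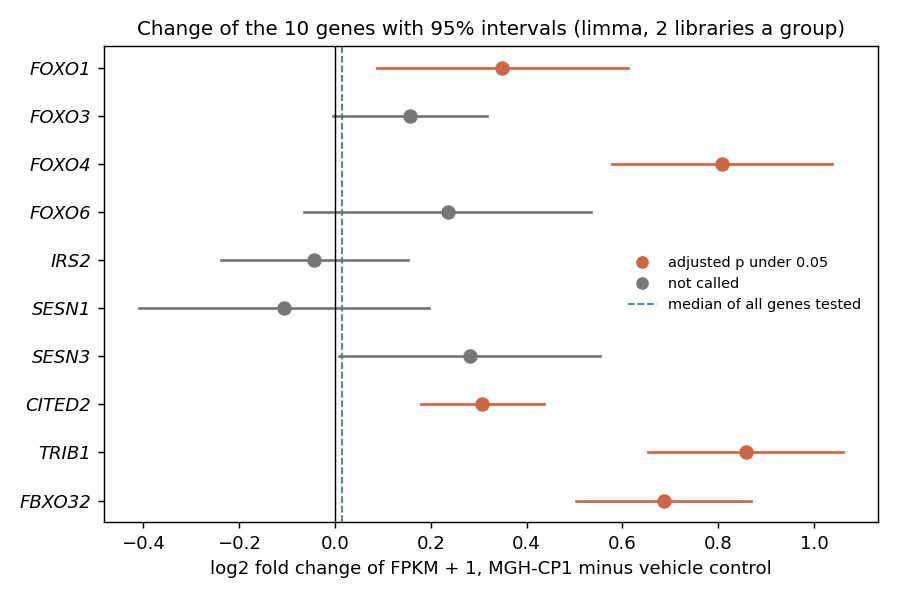
Log2 fold change of FPKM + 1, MGH-CP1 minus vehicle control, for the 10 genes, with 95% intervals from limma, orange for an adjusted p under 0.05, grey otherwise, and a dashed line at the median of all genes tested (0.01). TRIB1 (0.86), FOXO4 (0.81) and FBXO32 (0.69) lie farthest to the right, and the intervals of FOXO3, FOXO6, IRS2 and SESN1 include 0.

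Ordered by level, the 10 mRNAs kept CITED2 first, FOXO3 second and SESN3 last in both conditions. Behind them in the vehicle control libraries came IRS2 and then FBXO32, the latter at 4.77 FPKM, and after MGH-CP1 FBXO32 stood before IRS2 with 8.27 against 6.76 FPKM. In the controls, FOXO6, TRIB1, FOXO4 and SESN1 all had means between 2.62 and 2.72 FPKM. Neighbours in that order whose libraries overlapped were FOXO6 with TRIB1 and FOXO4 with SESN1. After MGH-CP1, TRIB1 and FOXO4 had moved to 5.73 and 5.42 FPKM with overlapping libraries. FOXO6 and SESN1, neither of them called, then had means of 3.41 and 2.34 FPKM.

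Other genes of the pathway were taken from lists written with earlier results of these data known. The first list holds genes that the study itself gives as raised when TEAD–YAP is blocked, such as TNFSF10 and GABARAPL1, so its count is not independent evidence of a direction. Of 40 further genes known to be induced by FOXO, 35 were tested, and 26 of them (74.3%) were called higher and 5 lower in limma, beside 27.1% and 23.8% of all genes tested. Their median log2 fold change was 0.42. The largest rises were those of PDK4, the kinase that shuts off pyruvate dehydrogenase, YPEL3, a growth-restraining gene, and BBC3, which encodes the cell death protein PUMA. PDK4 went from 1.51 and 1.49 FPKM to 7.49 and 6.71 FPKM, a log2 fold change of 1.70 (adjusted p = 1.91e-05 from limma). YPEL3 rose by 1.54 on the log2 scale, from 4.72 and 5.55 FPKM to 18.2 and 15.5 FPKM. BBC3 had 3.25 and 3.86 FPKM in the controls and 8.92 and 9.04 FPKM after MGH-CP1, with a log2 fold change of 1.13. In each of these 3 genes both treated libraries stood well above both controls.

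Not every gene of that list moved upward. EIF4EBP1, a brake on cap-dependent translation, fell by 0.51 on the log2 scale, GADD45B, a stress gene, by 0.50, and IGFBP1, the classical insulin-suppressed binding protein, by 0.24 (adjusted p of 7.57e-04, 9.39e-04 and 0.0188 from limma). The IGFBP1 call was lost without vehicle control replicate 2 (adjusted p = 0.0749 in limma) or MGH-CP1 replicate 1 (0.119). BCL2L11 and TXNIP, named after their values were seen, were the other two called lower. The 5 genes under the filter were FASLG, G6PC, PCK1, PPARGC1A and TRIM63, also named after their values were seen. Many genes of this list also answer to other factors, so its count does not measure FOXO activity.

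The list of FOXO-repressed genes held 6 genes, of which 4 were tested and 3 fell. Of all genes tested, 23.8% were called lower and 27.1% higher. One of the 3 that fell, CAV1, the coat protein of caveolae, is known as a gene that FOXO activates. It was placed in this list in error, so that 2 of the other 3 fell. CAV1 fell by 0.49 on the log2 scale with a standard error of 0.04. It was not added to the count of FOXO-induced genes above, where it would be a further gene called lower. MYC fell by 0.21 and the cyclin CCND1 by 0.19 on that scale (adjusted p of 0.00966 and 0.0138 from limma), and both calls were lost without MGH-CP1 replicate 1 (adjusted p of 0.0610 and 0.113). ID1, an inhibitor of differentiation factors, rose instead, by 0.95 (adjusted p = 2.41e-05 from limma). CAV1 also stood among the markers fixed for this line.

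Genes that act on FOXO proteins were mostly lower. Of 28 kinases, ubiquitin ligases, deacetylases and other modifiers, 27 were tested, and 17 of them were called lower and 3 higher in limma. Among all genes tested, 23.8% were called lower and 27.1% higher. Their median log2 fold change was -0.27. Largest was the fall of CDK1, the mitotic kinase, from 93.3 ± 0.888 to 52.1 ± 4.11 FPKM (SD, n = 2 each), a log2 fold change of -0.83. SKP2, the F-box protein that targets FOXO1 for breakdown, fell by 0.70 on the log2 scale, from 16.3 and 14.8 FPKM to 8.68 and 9.72 FPKM. SGK1, a kinase that shares target sites with AKT, fell by 0.69 on that scale, from 3.57 FPKM in both controls to 1.73 and 1.95 FPKM. All 3 genes were below both controls in both treated libraries. The 3 genes called higher were OGT (0.56), IKBKB (0.49) and SIRT2 (0.28 on the log2 scale). SIRT2 lost its call without vehicle control replicate 2 (adjusted p = 0.0626 in limma) or MGH-CP1 replicate 2 (0.107).

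All 7 genes of the 14-3-3 family, whose products hold phosphorylated FOXO in the cytoplasm, were tested. YWHAH, YWHAB and YWHAE fell by 0.23, 0.19 and 0.19 on the log2 scale, the others were not called, and 0 rose in limma. The call of YWHAB was lost without MGH-CP1 replicate 1 (adjusted p = 0.0644 in limma) and that of YWHAE without MGH-CP1 replicate 2 (0.0648). At an unadjusted p under 0.05, 4 were lower and 0 higher, as in limma voom (adjusted p under 0.05). The background called lower was 23.8% of all genes tested in limma, and 3113 of 12080 genes in limma voom. Of 27 genes from the insulin receptor through AKT to mTORC1, 24 were tested, with 6 called higher and 5 lower in limma. Their median log2 fold change was -0.0027, and the shares called were close to those of all genes. The lipid phosphatase INPPL1 (0.57), the receptor brake SOCS3 (0.42) and TSC2 (0.34), which inhibits mTORC1, rose on the log2 scale, while MTOR fell by 0.51, the AKT phosphatase PHLPP2 by 0.50 and the PI3K subunit PIK3R3 by 0.49.

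Close relatives of the target genes were read as well. TRIB2, a relative of TRIB1 with a known role in restraining FOXO3, went from 18.2 and 16.5 FPKM in the controls to 34.4 and 30.3 FPKM, a log2 fold change of 0.86 (adjusted p = 9.38e-05 from limma). TRIB1 and TRIB2 were thus both called higher, whereas TRIB3, named after its value was seen, had a log2 fold change of -0.06 (adjusted p = 0.446 from limma). Of the 6 relatives 4 were tested, with TRIB2 called higher and SESN2 lower (25% each way). That is near the 27.1% and 23.8% of all genes tested.

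**Figure D4:**
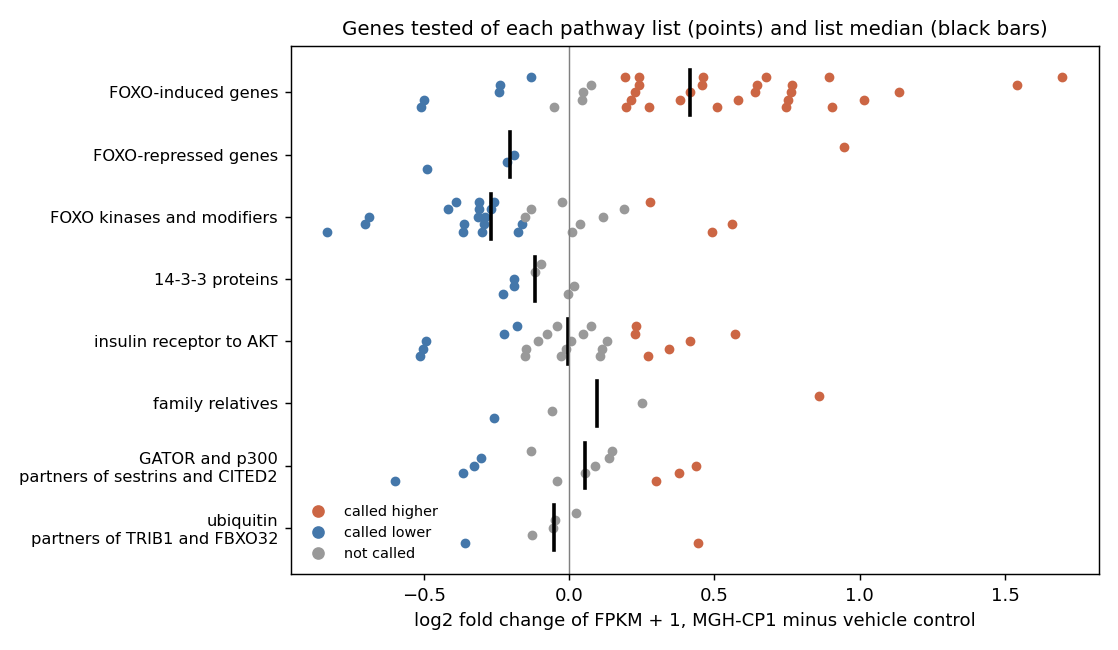
Log2 fold change of FPKM + 1, MGH-CP1 minus vehicle control, for each gene tested in 8 pathway lists, orange where called higher, blue where called lower and grey where not called, with a black bar at the median of the list (CAV1 is drawn among the FOXO-repressed genes). The FOXO-induced genes lie mostly to the right, with a median of 0.42, and the kinases and modifiers mostly to the left, with a median of -0.27.

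The changes of the 10 genes were recomputed under each alternative setting. FOXO4, TRIB1, FBXO32 and CITED2 were called in every one of them that tested the gene, except the per-gene model with no variance shared between genes, where their adjusted p lay between 0.0631 and 0.115 and 0 of the 10 genes were called (6 higher and 0 lower at an unadjusted p under 0.05). In limma voom on the recovered fragments, the log2 fold changes of FOXO4 and TRIB1 were 1.02 and 1.08.

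**Figure D5:**
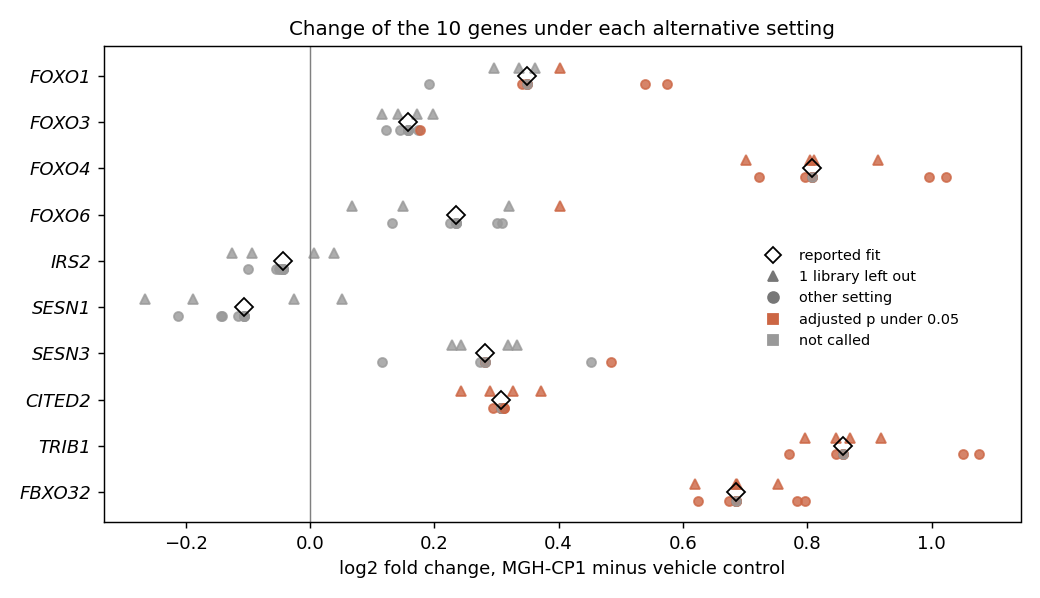
Log2 fold change of the 10 genes in the reported fit (open diamonds), with 1 library left out (triangles) and under other settings (circles), orange where the adjusted p was under 0.05 and grey otherwise. IRS2 and SESN1 fall on both sides of 0, and the other genes stay to the right of 0 throughout. FOXO1 spreads from 0.19 to 0.57.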

How the data were processed

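The authors deposited FPKM values in 1 table, with gene symbols, coordinates and gene lengths. Per the labels, the processing notes name CASAVA 1.8, STAR and hg19, without their roles, and the counting tool is not given in the sources used here. The 4 libraries were assigned by condition and replicate number in their titles. FPKM multiplied by length gave whole fragments in each library for 100% of values (tolerance 0.01), and these totals are the depths given. Genes averaging 1 FPKM or more were taken to log2(FPKM + 1) and compared with limma 3.58.1 in R 4.3.3 (trend, two-sided, 5.97 prior degrees of freedom). P-values were adjusted by Benjamini-Hochberg across those genes, with calls at 0.05. The fit was tested on simulated libraries, where 197 of 200 genes changed by 1 on the log2 scale were recovered and 12 of 209 calls were false. Smaller changes, such as those of the 10 genes, were not simulated. The simulation gave every gene the same dispersion, a measure of spread beyond counting, and changed none of the lowest genes. It changed 200 of 12057 genes tested, while 50.8% were called in the data. Its share of false calls therefore need not hold for these libraries. No count model served as the main test, since the unit is FPKM. Poisson intervals and shares of FPKM were computed in Python 3.11.15 with scipy 1.17.1. Alternatives were another pseudocount, filters, normalizations, variance models, voom, the replicate number as a block and leaving out each library. The 10 genes, the lists and the tests were chosen with earlier results of these data known. From each list, up to 3 genes called in either direction, with the largest change and groups apart, are named. COP1 is listed under its older symbol.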

Additional observations from a re-analysis of the deposited data

How the results depend on the processing

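The per-gene model without shared variance called 9 genes higher and 4 lower of all genes, 0 of the 10 genes and 0 and 0 of the pathway genes (34 higher and 35 lower at an unadjusted p under 0.05). With no filter, 24878 genes were tested, of which 2280 were called higher and 1844 lower. Of 126 pathway genes tested in that setting, 26 were called higher and 22 lower. In the main fit 41 and 38 of 116 pathway genes were called (35.3% and 32.8%), beside 27.1% and 23.8% of all genes tested. With a mean of at least 5 FPKM, 4 of the 10 genes were tested, with 2 called higher and 0 lower. Of all 8439 genes tested under that filter, 2434 were called higher and 2564 lower. All 35 named pathway genes kept their direction, and 11 lost their call in a setting other than the per-gene model. These were IGFBP1, CCND1, MYC, SIRT2, YWHAB, YWHAE, PHLPP2, SESN2, HIF1A, TFAP2C and WDR59, each with no filter (adjusted p from 0.0508 to 0.118 in limma), and some without single libraries. CCND1 also lost its call in limma without the trend (adjusted p = 0.0567). With libraries left out, the log2 fold change of IRS2 ran from -0.12 to 0.04 and changed sign without vehicle control replicate 2 (0.038) and MGH-CP1 replicate 1 (0.0059). That of SESN1 ran from -0.26 to 0.051 and changed sign without vehicle control replicate 1. The FOXO1 share rose by 1.56 percentage points in fragments, against 0.903 in FPKM, where it ran from 0.485 without MGH-CP1 replicate 2 to 1.32 with libraries left out. With libraries left out, the share of FOXO6 moved by -3.85 to 0.932 points (0.0819 without vehicle control replicate 2). The libraries share only a replicate number, with a correlation of deviations of 0.0777 across genes; with a replicate block, 3466 genes were called higher and 3052 lower, and 5 of the 10 genes. Depth limits low genes such as FOXO6, at 125 to 180 fragments, and SESN1, at 133 to 269. The cause of these differences was not tested.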

Other observations

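The binding partners of the target proteins were counted too. The 13 genes for the GATOR complexes, which carry the sestrin signal to mTORC1, and for factors that meet CITED2 at p300 were all tested. In limma 3 were called higher and 4 lower (23.1% and 30.8%), near the 27.1% and 23.8% of all genes tested. Their median log2 fold change was 0.05. SEH1L, a GATOR2 subunit shared with the nuclear pore, fell by 0.60 on the log2 scale, the coactivator CREBBP by 0.36 and the GATOR1 subunit NPRL3 by 0.33. WDR59 (0.44), TFAP2C (0.38) and HIF1A (0.30), the factor that CITED2 restrains, rose on that scale. TFAP2C lost its call without vehicle control replicate 2 (adjusted p = 0.0580 in limma) or MGH-CP1 replicate 1 (0.101). HIF1A had 140 and 125 FPKM in the controls and 168 and 158 FPKM after MGH-CP1. CREBBP, like EP300, is also in the list of FOXO modifiers. Of 9 genes for ubiquitin partners of TRIB1 and FBXO32, 6 were tested, with 1 called higher and 1 lower. That is 16.7% each way, below the 27.1% and 23.8% of all genes tested. CEBPB, a relative of the substrate of TRIB1, rose by 0.44 on the log2 scale and the cullin CUL1 fell by 0.36. CEBPA, the substrate itself, and MYOD1 were listed at 0 in all 4 libraries.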
